A study of Rattus norvegicus with 40 samples.

Results

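The intestine and the lung of the rat both mature in the last days before birth, and the comparison described here asks which of their changes in gene expression are shared and which belong to 1 organ. All 40 arrays of the series were used, 10 for each of 4 groups: the intestine or the lung, each taken whole, of Wistar embryos on gestational day 16 (E16) or 20 (E20). No embryo was treated and no genotype other than the strain is given. RNA was labelled from 1 µg in intestine and 2 µg in lung, so that organ and labelled amount cannot be told apart. Tissue of several siblings was frozen together by the labels' account, which do not settle whether an array holds 1 embryo or more, so the p-values measure the spread between these arrays only. For each of 14218 genes the change from E16 to E20 was taken in each organ, and then the interaction, which is the lung change minus the intestine change. All values are log2 intensities or differences of them, where 1 unit is a 2-fold difference.

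By way of background, the fetal intestine turns from a simple tube into villi covered by absorptive cells that will take up fat, sugar and protein from milk, with goblet cells that make mucus and endocrine cells that release hormones. The fetal lung divides its growing tips into air sacs lined by type II cells, which make surfactant, and flat type I cells, across which gas passes, while its airways gain secretory club cells and cilia. Both organs are lined by epithelium of endodermal origin and both respond to the rise of glucocorticoid hormone before birth. In whole organs, fewer cells of a type and less RNA per cell cannot be told apart.

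The labelled organs were borne out by their markers. Over 7 intestinal identity genes the mean level of an array had a median of 7.40 at E16 and 11.04 at E20 in intestine, against 6.15 and 6.04 in lung. Over 7 lung identity genes it was 10.28 and 11.92 in lung, against 7.31 and 6.93 in intestine. Array medians of intensity ranged from 219.9 to 263.7. In 9 arrays the mean of a list for another tissue (liver, pancreas, cardiac or skeletal muscle among the lists followed) lay over 0.75 log2 units above the median of its group. Of these, 2 lung E16 arrays stood at 9.74 and 10.12 for cardiac muscle genes, against a group median of 7.26, and 3 intestine E16 arrays at 7.55 to 7.78 for pancreas genes, against 6.57. Of 19 pancreas genes 4 fell in intestine, and 1 did without the 9 arrays. Of 19 cardiac genes 2 had an interaction, both below, and without those arrays 2 above and 2 below. Liver genes are taken up with Cps1, Mt2A, Apoa1 and Afp.

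A change was called at a limma adjusted p under 0.05 and a size of at least 1 log2 unit. In intestine 1250 genes were higher at E20 (8.79% of all genes) and 890 lower (6.26%). In lung 1016 were higher (7.15%) and 658 lower (4.63%). The organs differed in their change for 2502 genes: the lung change lay above the intestine change for 1297 (9.12%) and below it for 1205 (8.48%). Of the 3207 genes called in either organ, 607 were called in both, 362 as higher in both, 179 as lower in both and 66 in opposite directions. The 362 genes that rose in both were 28.96% of the intestinal rises and 35.63% of those in lung. The 179 that fell in both were 20.11% of the falls in intestine and 27.2% of those in lung.

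Genes were then sorted by how the changes compared. Those called alike moved in the same direction in both organs with a 95% interval of the interaction wholly inside 1 log2 unit either way, so that a 2-fold difference between the organs lay outside it: 157 rose alike (1.1%) and 133 fell alike (0.935%). Those called in 1 organ only had a called interaction and a 95% interval of the other organ's change wholly inside the same limits. By this measure 399 genes rose in lung only (2.81%) and 164 fell in lung only (1.15%), whereas 606 rose in intestine only (4.26%) and 367 fell there only (2.58%). Opposite changes were called for 54 genes that rose in lung and fell in intestine (0.38%) and for 12 with the reverse pattern (0.0844%). Counts within the gene lists below are to be read beside these shares of all genes. A further 550 genes had a called interaction although neither organ's own change reached the threshold, 342 of them leaning higher in lung and lower in intestine. The median interaction of all genes was 0.03, and it became -0.10 when every array was centred on its median, a shift that lowered the share of interactions above 0 among the calls from 51.8% to 42.4% (1081 above and 1466 below).

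**Figure D1:**
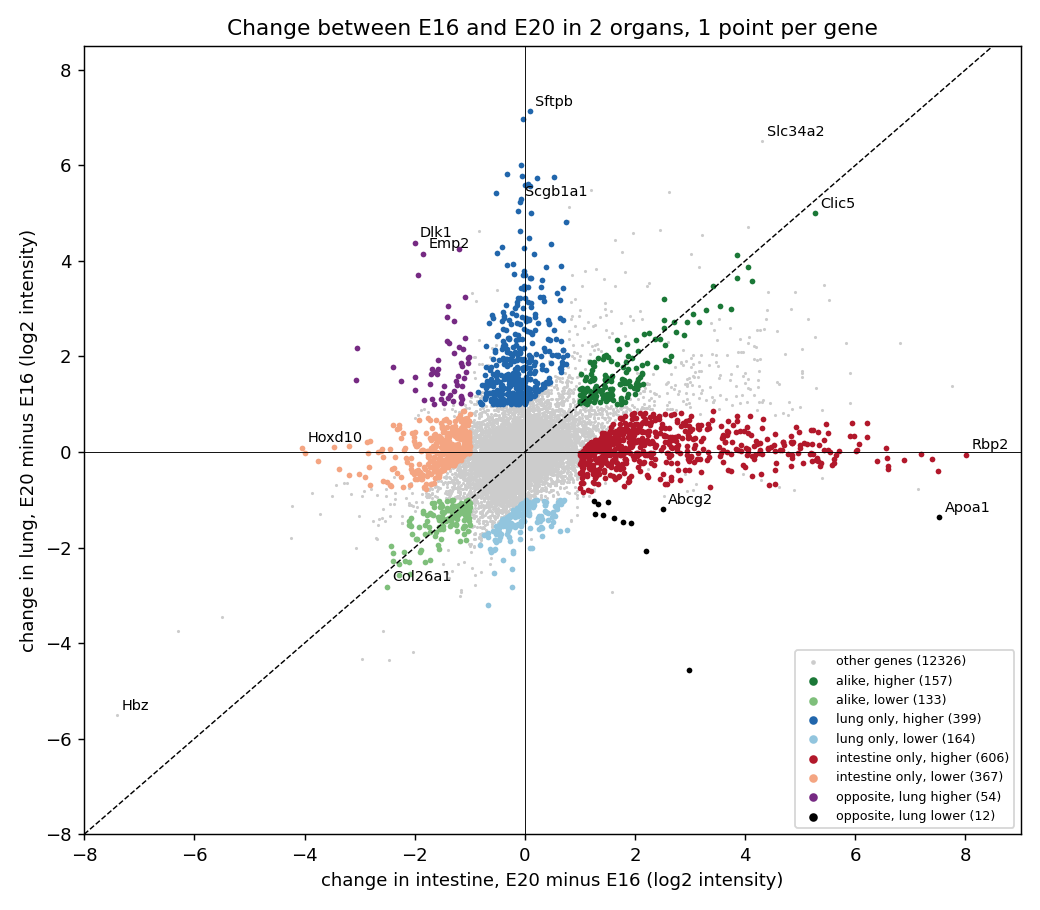
Each point is a gene, with its change from E16 to E20 in intestine on the horizontal axis and in lung on the vertical axis, both in log2 units, coloured by how the 2 changes compare. Genes changing alike lie along the dashed line of equal change (157 higher, 133 lower), while the 399 lung-only and 606 intestine-only rises form 2 arms along the axes.

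The genes that rose in lung only were led by the surfactant proteins, which lower surface tension in the air sacs or bind microbes there. Sftpb ranged from 6.21 (median 6.33) to 6.59 in lung at E16 and from 12.98 (median 13.64) to 13.90 at E20, while in intestine it lay between 5.65 and 6.75 at both ages. All E20 lung arrays stood above every other array. Its interaction was 7.04 (SE 0.16, limma adjusted p = 2.15e-32), and a second probe set gave the same class. Sftpa1 had a median of 5.91 in lung at E16 and 12.83 at E20, against 5.51 and 5.48 in intestine, with an interaction of 7.01 (SE 0.15). The collectin Sftpd followed with 6.14, the chitinase Chia with 6.07, the sulfotransferase Sult1a1 with 5.95 and the chloride channel protein Clic3 with 5.83. Sftpc, another surfactant protein, was already at a mean of 11.18 in the E16 lung and had a smaller interaction of 3.55.

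The promoter of Sftpa1 is shown because the gene stayed low in 3 of the groups and was high in the fourth. It is the RefSeq sequence from 250 bases before to 50 bases after the start in GRCr8, chr16:17042014-17042313 on the plus strand, with the TATA box (TATAAA on either strand) in capitals, 39 bases before the start.
Sftpa1: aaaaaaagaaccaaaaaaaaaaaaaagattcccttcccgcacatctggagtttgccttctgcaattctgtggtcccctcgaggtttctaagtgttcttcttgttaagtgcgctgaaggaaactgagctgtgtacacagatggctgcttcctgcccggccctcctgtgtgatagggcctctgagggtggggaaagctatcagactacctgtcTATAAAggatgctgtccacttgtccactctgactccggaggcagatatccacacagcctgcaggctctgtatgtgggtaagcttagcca
The same letters occurred in 5 of 16 promoters found for the surfactant list (31.2%), in 39 of 309 for all lung-only rises (12.6%) and in 993 of 11734 for all genes measured (8.46%).

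By cell type, 16 of 21 genes of surfactant and type II cells had a called interaction, all with the lung change above, and 9 rose in lung only. The list's median change was 3.65 in lung and 0.10 in intestine. Of 17 type I cell genes 12 had such an interaction and 6 rose in lung only. Ager, a receptor abundant on type I cells, ranged from 7.40 to 7.76 in the E16 lung and from 11.88 to 13.28 at E20 (medians 7.56 and 12.74), whereas intestine stayed between 7.35 and 7.90. The groups at E20 did not overlap, and the interaction was 5.16 (SE 0.17, limma adjusted p = 8.58e-27). Cldn18, a tight junction claudin of the alveolus, had an interaction of 3.80, and Gprc5a, a receptor induced by retinoic acid, one of 3.92.

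Airway genes behaved in the same way. Of 11 club and airway secretory genes 7 rose in lung only, and of 12 genes of motile cilia 5 did. The secretoglobin Scgb1a1, the main secreted product of club cells, ranged from 8.67 to 9.95 at E16 and from 14.06 to 14.53 at E20 in lung (medians 9.05 and 14.45), while intestine lay at medians of 6.52 and 6.30. It was thus above intestine already at E16, by 2.69, and by 8.02 at E20, with an interaction of 5.33 (SE 0.16, limma adjusted p = 2.09e-28). Scgb3a1 had an interaction of 4.89 and Cyp2f4, a cytochrome P450 of club cells, one of 4.40. Among cilium genes Dynlrb2, a dynein light chain, had 3.74 and Rsph1, a radial spoke protein, 3.05. Of 18 genes for ion transport and lung liquid 4 rose in lung only, including the sodium channel subunit Scnn1a (interaction 3.88) and the chloride channel Ano1 (3.03), and 3 rose alike.

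The mesenchyme of the lung also took part. Of 21 elastic fibre genes 14 had an interaction, all above: 5 rose in lung only, 4 fell in intestine only and 2 moved in opposite directions, so that the list's median change was 0.52 in lung and -0.82 in intestine. Elastin, Eln, the core protein of the fibre, ranged from 9.34 to 10.46 at E16 and from 11.85 to 13.11 at E20 in lung, and intestine stayed between 8.90 and 9.47. The lung groups did not overlap, and the interaction was 2.71 (SE 0.20, limma adjusted p = 1.38e-15); a second probe set for Eln gave 0.84 and no call. Mfap4, a microfibril protein, had an interaction of 2.62. Of 22 collagen genes 3 rose in lung only, 1 fell in intestine only and 14 had no call. The collagen VI chains Col6a3 (interaction 2.48) and Col6a1 (1.28) rose in lung only. Of 20 lipofibroblast and alveolar mesenchyme genes 3 rose in lung only and 3 moved in opposite directions. In that list 1 rose and 2 fell in intestine only, and 9 had no call. The share of all genes that rose in lung only was 2.81%. Lpl, the lipoprotein lipase of lipid-laden fibroblasts, had an interaction of 3.39.

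Myeloid genes gave a smaller contrast, with 5 interactions above among 24 genes and 0 below, against 9.12% and 8.48% of all genes. Of 24 measured, 11 rose in lung and 3 in intestine, and 4 rose in lung only: the lysozyme Lyz2 (interaction 3.24), the calcium-binding proteins S100a8 (2.91) and S100a9 (3.28) of neutrophils, and the chemokine Ccl2 (1.90). The mean of the list per array ran from 9.05 to 9.46 in the E20 lung and from 8.49 to 8.76 in the E20 intestine. At E16 the organs overlapped, with 8.04 to 8.41 and 8.08 to 8.52. Lyz2 is also made by type II cells.

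Genes that rose in intestine only had a median change of 2.02 in their own organ, against 1.64 for those of lung. Rbp2, which carries retinol in absorptive cells, ranged from 5.66 to 6.41 at E16 and from 13.55 to 14.30 at E20 (medians 5.96 and 14.09), while lung stayed between 5.27 and 6.42 at both ages. No E20 intestine array came near any other array. Its interaction was -8.07 (SE 0.17, limma adjusted p = 2.56e-33). Apoa4, an apolipoprotein of chylomicrons, had medians of 7.10 and 14.22 in intestine against 6.71 and 6.63 in lung, with an interaction of -7.24 (SE 0.11). Mttp, which loads fat onto apolipoprotein B, had -7.91, and Prap1, a proline-rich secreted protein, -7.55. The metalloprotease Mep1a had -6.95 and the kidney- and gut-enriched membrane protein Lrrc19 -6.90.

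The promoter of Rbp2, the gene with the largest intestine-only rise, is shown because the TATA box was frequent among lipid absorption genes. It is the RefSeq sequence in GRCr8, chr8:107963292-107963591 on the plus strand, over the same window, with 2 matches to TATAAA on either strand in capitals, 56 and 33 bases before the start.
Rbp2: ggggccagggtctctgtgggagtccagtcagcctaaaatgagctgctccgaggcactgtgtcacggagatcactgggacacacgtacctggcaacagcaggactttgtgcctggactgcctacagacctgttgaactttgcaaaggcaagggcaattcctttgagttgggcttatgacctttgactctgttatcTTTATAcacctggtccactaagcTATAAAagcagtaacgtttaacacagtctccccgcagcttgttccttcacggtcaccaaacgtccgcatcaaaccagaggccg
Of 12 promoters found for the 20 lipid absorption genes 8 held TATAAA (66.7%), against 1 of 18 for brush border genes (5.56%), 45 of 516 for all intestine-only rises (8.72%) and 8.46% over all genes. These matches are a description of the letters, and no factor was measured.

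Both absorptive lists held more interactions below than above. Of 20 brush border enzymes and carriers 16 had an interaction below and 2 above, with a median change of 4.44 in intestine and 0.09 in lung, and 12 rose in intestine only. Of 20 lipid absorption and lipoprotein genes 16 had one below and 2 above. In that list 12 rose and 1 fell in intestine only, and 2 moved in opposite directions. Fabp2, the intestinal fatty acid binding protein, ranged from 5.90 to 7.39 at E16 and from 12.55 to 14.12 at E20, with lung between 5.33 and 6.19, and an interaction of -7.04 (SE 0.22, limma adjusted p = 6.3e-28). The peptide carrier Slc15a1 had -5.67, the amino acid carrier Slc7a9 -5.64 and the sugar carrier Slc2a2 -5.61. Goblet cell genes had an interaction below in 10 of 12 cases, with the lectin Zg16 at -5.55 and the guanylin precursor Guca2a at -5.61. Enteroendocrine genes had one in 9 of 15 cases, with the hormone genes Gcg (-4.75), Sct (-4.51) and Nts (-3.46).

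Of 26 endodermal and epithelial transcription factors 6 rose in intestine only and 1 fell there only, against 4.26% and 2.58% of all genes. In the intestinal identity list 6 of 7 rose in intestine only, and the other, Hoxc9, fell there only, named after its values were seen. Cdx2, the homeobox factor that specifies intestine, ranged from 7.20 to 8.42 at E16 and from 11.94 to 12.41 at E20, while lung stayed between 6.23 and 6.88. The interaction was -4.35 (SE 0.16, limma adjusted p = 6.61e-25). Hnf4a, a nuclear receptor of absorptive and liver cells, had -4.05 and Gata4, a factor of the proximal gut, -4.10. By contrast Nkx2-1, the corresponding factor of lung, changed by 0.96 in lung and 0.58 in intestine and was called in neither.

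Metabolic lists differed in the side to which they leaned. Of 40 xenobiotic metabolism genes 15 rose in lung and 6 in intestine, 9 in lung only and 2 in intestine only. The shares of all genes were 7.15% and 8.79%, and 2.81% and 4.26% for rises in 1 organ only. Glycolysis genes (22) and antioxidant genes (31) each had 4 interactions above and 4 below, against 9.12% and 8.48% of all genes. Of 26 genes for burning fatty acids and making ketone bodies 11 rose in intestine only, 12 being called in intestine and 0 in lung, with medians of 0.91 and 0.07. Acaa2, which performs the last step of mitochondrial fatty acid oxidation, ranged from 10.39 to 10.99 in intestine and from 10.90 to 11.51 in lung at E16, so the organs began close together. At E20 it was 12.43 to 13.00 in intestine and 10.76 to 11.56 in lung, with an interaction of -2.04 (SE 0.14, limma adjusted p = 8.73e-17); a second, dimmer probe set gave -0.39 and no call. Of 14 genes of gluconeogenesis and the urea cycle 8 rose in intestine only, among them Cps1, the first enzyme of the urea cycle, with E20 arrays between 13.94 and 14.10 in intestine (interaction -4.36, SE 0.44), and Pck1 with -5.57. The E16 intestine arrays of Cps1 were widely spread, from 7.66 to 10.57, and lung lay between 5.38 and 5.97 at E16. In the E20 lung Cps1 was 7.55 in replicate 1 and 7.86 in replicate 8, and from 5.09 to 5.73 in the other arrays. Those 2 arrays had the highest means of liver genes in their group, 8.27 and 8.28. Without the 9 arrays that carried other tissues the interaction of Cps1 was -4.81. Respiratory chain genes had an interaction below in 7 of 36 cases, such as Ndufs1 (-1.37) and Cyc1 (-1.34), which changed by less than the threshold in either organ. Over all genes 8.48% had an interaction below.

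**Figure D2:**
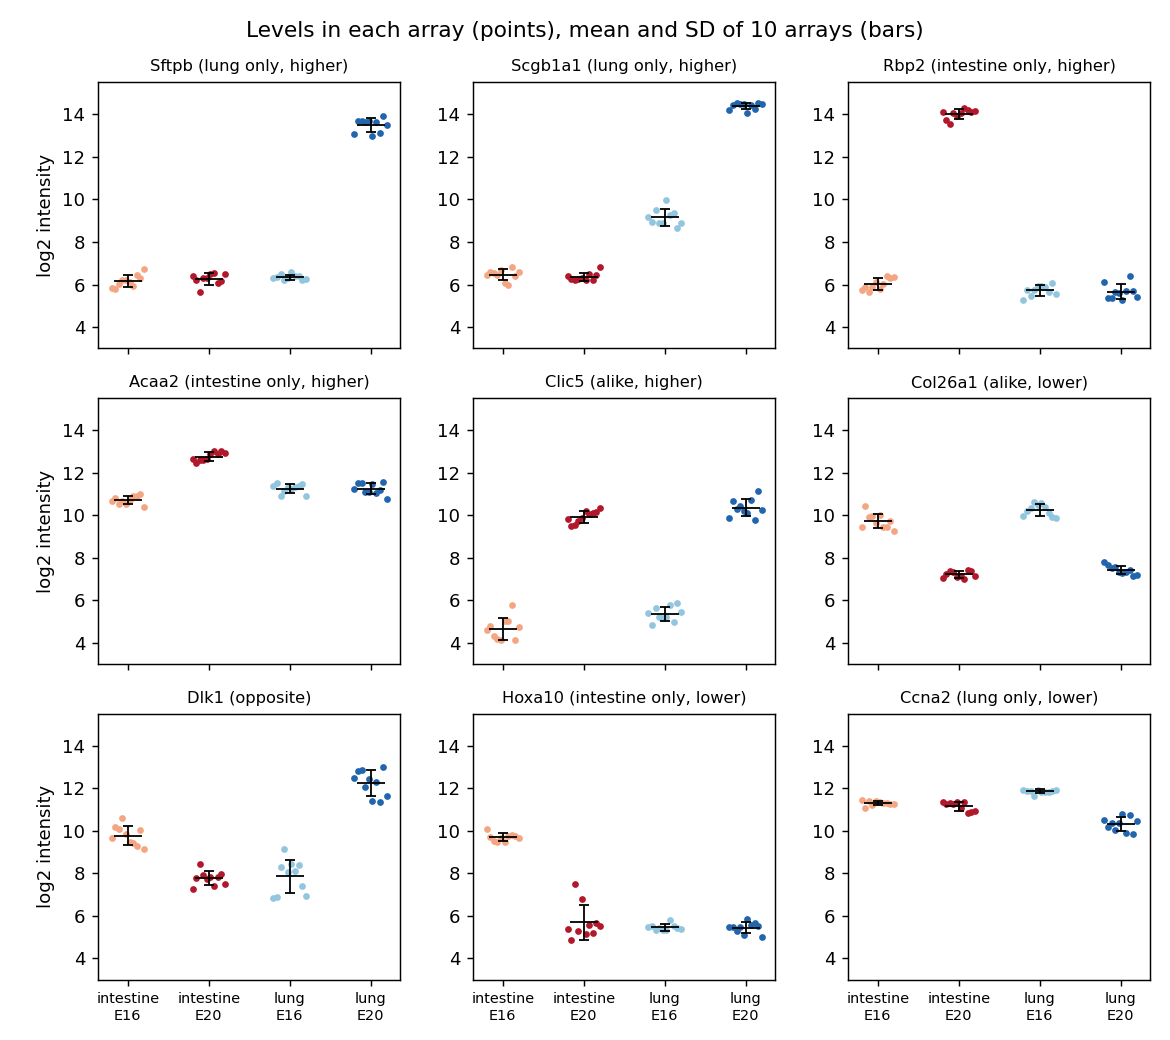
Log2 intensity of 9 genes in each of the 40 arrays (points), with the mean and SD of the 10 arrays of a group (bars). Sftpb and Scgb1a1 change in lung only, Rbp2 and Acaa2 in intestine only, Clic5 and Col26a1 alike in both organs, Dlk1 in opposite directions, Hoxa10 falls in intestine only and Ccna2 in lung only.

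The genes that fell in lung only were led by other functions but held many of the cell cycle. The largest interactions were those of the kinase gene Rps6ka6 (-2.60), Arxes2 (-2.55), the ubiquitin ligase adaptor Spsb4 (-2.41) and the signalling protein Bmp7 (-2.29). Bmp7 ranged from 8.92 to 9.41 in intestine and from 8.95 to 9.38 in lung at E16, so that the organs overlapped. At E20 it lay between 9.67 and 9.97 in intestine and between 7.26 and 7.66 in lung (interaction SE 0.086, limma adjusted p = 5.33e-25). Other large falls in lung only were in Orc1, a subunit of the origin recognition complex (-2.22), in Nkain1 (-2.13), in Lrat, which stores retinol as esters (-2.10), and in Pak1ip1, a factor of ribosome assembly (-2.06).

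Mitosis genes were the clearest group. Of 39 measured, 27 fell in lung and 0 in intestine, at medians of -1.29 and -0.25, against 4.63% and 6.26% of all genes that fell. In 16 the difference between the organs was itself called, always with the lung change below, and 14 fell in lung only. Ccna2, the cyclin of S phase and mitotic entry, ranged from 11.64 to 11.94 in lung and from 11.09 to 11.43 in intestine at E16. At E20 it lay between 9.86 and 10.78 in lung and between 10.82 and 11.34 in intestine, so that the order of the organs was the reverse of that at E16 and no array overlapped. Its interaction was -1.38 (SE 0.13, limma adjusted p = 1.35e-12). The kinesin Kif11 had -1.32, the checkpoint protein Mad2l1 -1.38 and the centromeric histone Cenpa -1.69. Mki67, the proliferation marker, had medians of 11.63 and 11.88 in intestine and of 11.97 and 11.05 in lung. Its interaction of -1.24 (SE 0.10) was called although its own lung change of -0.94 fell short of the threshold. Without the 9 arrays that carried other tissues, 31 mitosis genes fell in lung and 20 had the interaction.

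Of 42 DNA replication genes 32 fell in lung and 1 in intestine, with medians of -1.17 and -0.55. An interaction was called for 9, below for 8 of them and above for Pola2, a polymerase subunit named after its values were seen, which changed by -0.15 in intestine and 0.96 in lung. The mean level was lower at E20 in both organs. The mean of the list per array went from 10.52 to 10.62 at E16 to 9.20 to 9.74 at E20 in lung, and from 10.29 to 10.42 to 9.63 to 9.93 in intestine. Orc1 had medians of 8.27 and 5.93 in lung and 7.29 and 7.08 in intestine. Uhrf1, which maintains DNA methylation at replication, had an interaction of -1.97, the helicase subunit Mcm6 -1.17 and the helicase loader Mcm10 -1.13. Gins1, a helicase cofactor, fell alike (-1.11 in intestine and -1.27 in lung), and Mcm2 was called in lung (-1.16) with an interaction of -0.61 that was not called.

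Promoters of 2 mitosis genes are shown because motifs of cell cycle genes were frequent among the falls of the lung. Cenpa fell in lung only, whereas Mki67, with a lung change of -0.94, was called in the interaction and not in lung. Capitals mark the CHR element (TTTGAA) and the CCAAT box (CCAAT), each on either strand. They are RefSeq sequences in GRCr8 over the same window, for Cenpa chr6:31431503-31431802 and for Mki67 chr1:199952544-199952843, both on the minus strand. In Mki67 the CHR match 99 bases before the start overlaps the CCAAT match 94 bases before it.
Cenpa: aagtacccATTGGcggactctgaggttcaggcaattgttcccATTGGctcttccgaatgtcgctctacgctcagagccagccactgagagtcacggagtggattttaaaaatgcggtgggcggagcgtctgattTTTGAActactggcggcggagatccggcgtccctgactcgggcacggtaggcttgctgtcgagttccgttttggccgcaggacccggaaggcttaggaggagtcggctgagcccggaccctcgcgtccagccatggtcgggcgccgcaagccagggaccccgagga
Mki67: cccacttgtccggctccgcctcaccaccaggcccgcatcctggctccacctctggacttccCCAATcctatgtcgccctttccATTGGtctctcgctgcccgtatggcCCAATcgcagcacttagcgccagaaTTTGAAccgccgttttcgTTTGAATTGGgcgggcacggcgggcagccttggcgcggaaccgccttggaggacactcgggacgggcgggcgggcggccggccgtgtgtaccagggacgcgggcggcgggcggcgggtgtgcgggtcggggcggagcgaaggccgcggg
The CHR letters occurred in 41 of 147 promoters of genes that fell in lung only (27.9%) and in 1446 of 11734 overall (12.3%). Among mitosis genes 24 of 35 held them (68.6%) and 27 of 35 held CCAAT (77.1%, against 37.3% overall). Within that list 16 of 26 members that fell in lung held it, as did 8 of 9 members not called there. Outside the mitosis and DNA replication lists it occurred in 31 of 127 promoters of lung-only falls (24.4%). The E2F letters TTTGGCGC or TTTCCCGC were found in 14 of 39 DNA replication promoters (35.9%), in 9.52% of the lung-only falls and in 2.58% overall. In other classes the CHR share was 10.0% of lung-only rises, 12.1% of alike rises, 15.1% of intestine-only rises and 13.3% of intestine-only falls.

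**Figure D3:**
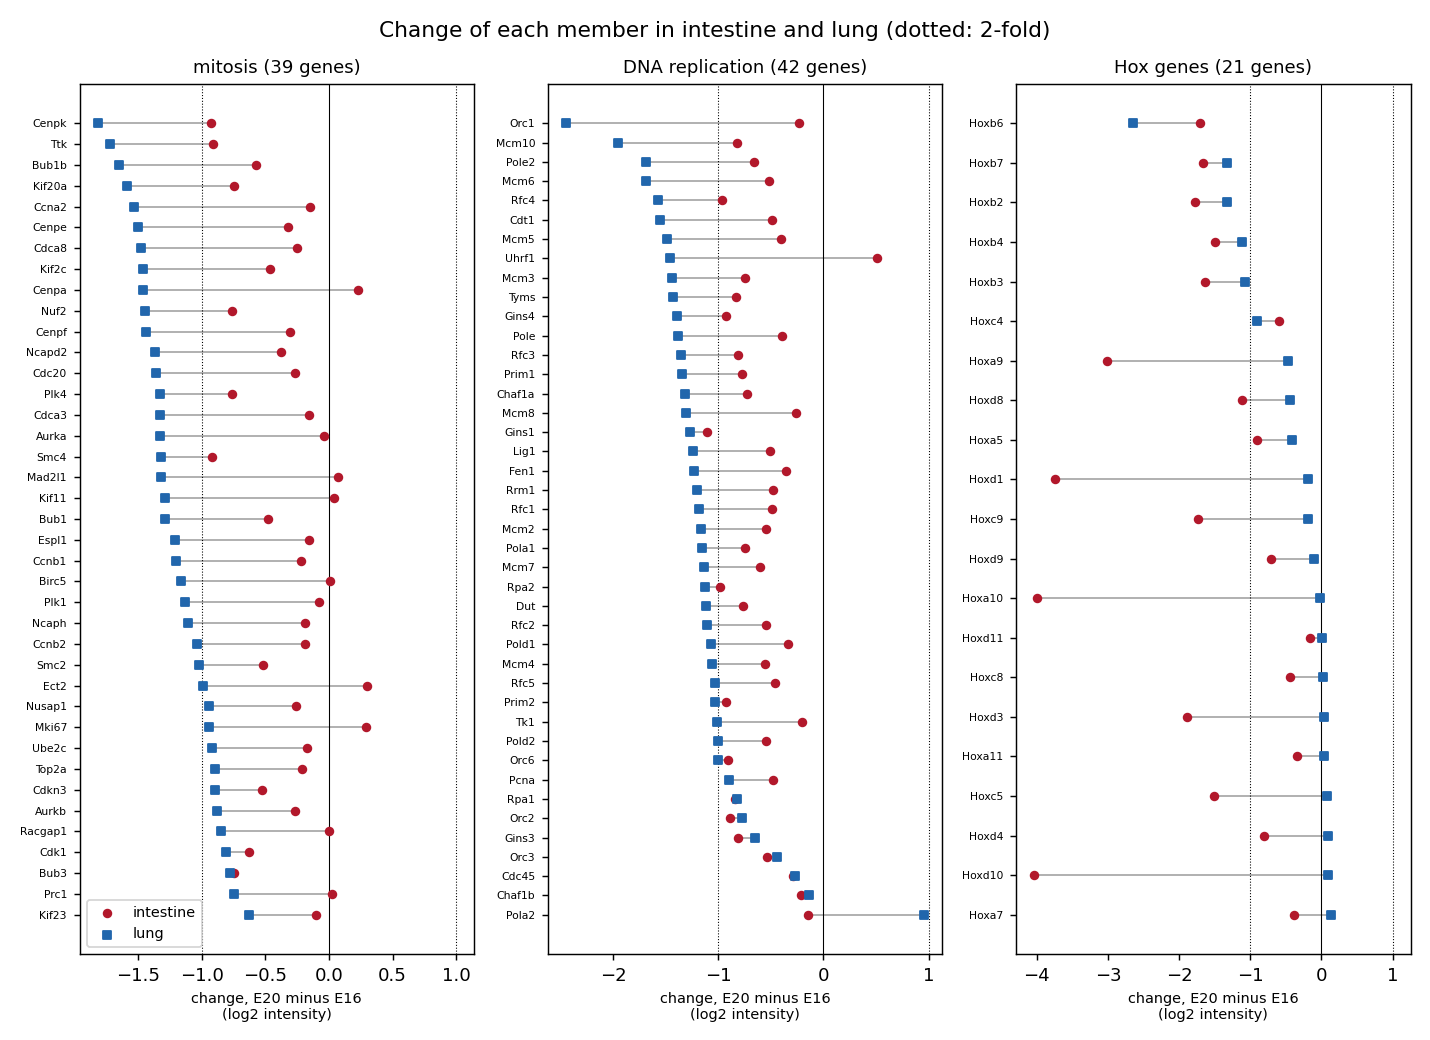
Change from E16 to E20 in intestine (circles) and lung (squares) of each measured member of 3 gene lists, in log2 units, ordered by the lung change, with dotted lines at a 2-fold change. Mitosis genes lie left of the line in lung for 27 of 39 members and in intestine for 0, whereas most Hox genes lie farther left in intestine.

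In intestine the falls that lung did not share included Hox genes, the homeobox factors that set position along the body. Of 21 measured, 13 fell in intestine and 5 in lung, against 6.26% and 4.63% of all genes. Hoxa10, a gene of the posterior body, ranged from 9.47 to 10.09 in intestine at E16 and from 4.86 to 7.50 at E20 (median 5.46). Lung lay between 5.02 and 5.84 at both ages, so that the organs were 4.23 apart at E16 and 0.25 apart at E20. Its interaction was 3.98 (SE 0.27, limma adjusted p = 1.47e-16). Hoxd10 gave the same pattern, with medians of 9.26 and 5.03 in intestine and 4.67 and 4.68 in lung (interaction 4.13, SE 0.25). The same E20 intestine arrays, replicates 3 and 5, stood highest for both genes. Hoxa10 was 7.50 and 6.78 there and 4.86 to 5.67 in the other arrays. Hoxd10 was 6.84 and 6.15 there and 4.75 to 5.21 in the others. What set these arrays apart was not tested. Hoxd1 had 3.56 and Hoxa9 2.53. Named here after their values were seen, the 7 intestine-only members were Hoxa9, Hoxa10, Hoxc5, Hoxc9, Hoxd1, Hoxd3 and Hoxd10, and the 4 members that fell alike were Hoxb2, Hoxb3, Hoxb4 and Hoxb7. Hoxb2 had medians of 10.68 and 9.03 in intestine and 11.06 and 9.84 in lung, with changes of -1.77 and -1.32 and a 95% interval of the difference from 0.16 to 0.74.

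Of 16 genes of the insulin-like growth factor (IGF) axis 5 fell in intestine only, 4 of them binding proteins that hold IGF in the tissue. The share of all genes that fell in intestine only was 2.58%. The IGF list also had 1 rise in intestine only, 1 in lung only and 3 interactions below. Of 18 genes of the fibroblast growth factor pathway 0 fell in intestine only and 4 fell in intestine. Igfbp5 ranged from 11.67 to 12.36 at E16 and from 8.95 to 10.52 at E20 in intestine, and from 10.42 to 10.95 and 11.01 to 11.59 in lung. The organs thus changed order between the ages, and the interaction was 2.95 (SE 0.19, limma adjusted p = 3.53e-17). Igfbp2 had 1.88 and Igfbp3 1.60, while Igfbp6 rose in lung only (2.34). Fst, which binds activin, fell in intestine only (3.31), as did Ltbp1, which stores TGF-beta in the matrix (2.26), and the Notch target Hey2 (2.85). Of 29 BMP and TGF-beta genes 4 fell and 2 rose in intestine only, 4 rose and 1 fell in lung only, and 14 had no call. Of 18 Notch genes 1 fell and 2 rose in intestine only, 1 rose in lung only, and 14 had no call. Of the 24 imprinted and fetal growth genes 4 fell in intestine only, including Mest (1.80) and Sgce (1.64), both expressed from the paternal copy.

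Erythroid genes differed as a group, with 17 of 23 lower in intestine and 8 in lung. The mean of the list per array went from a median of 11.24 to 8.49 in intestine and from 10.68 to 9.73 in lung. Alas2, the first enzyme of heme synthesis in red cells, fell in intestine only, with medians of 12.99 and 9.92 against 12.07 and 12.19 in lung (interaction 3.07). The embryonic globin Hbz fell in both organs, from between 13.36 and 14.20 to between 5.94 and 6.68 in intestine and from between 12.57 and 13.37 to between 6.83 and 8.20 in lung. Even so its changes of -7.41 and -5.51 differed (interaction 1.89, SE 0.19, limma adjusted p = 1.56e-11). How much the number of blood cells in each organ contributes was not tested.

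The 157 rises that the organs shared alike included 5 of 24 lysosomal genes, 3 of 18 ion transport genes, 3 of 23 antigen presentation genes, 2 of 22 keratin and polarity genes and 1 of 22 tight junction genes, against 1.1% of all genes. The largest was Clic5, an intracellular chloride channel protein of cell borders rich in actin. It ranged from 4.11 to 5.76 and from 9.50 to 10.34 in intestine, and from 4.82 to 5.86 and from 9.79 to 11.14 in lung. The organs overlapped at both ages, while no E16 array reached an E20 array. Its changes were 5.26 and 5.00 (SE 0.17 each), with an interaction of -0.26 and a 95% interval from -0.75 to 0.22. The integrin subunit Itgb6, which activates TGF-beta, rose by 4.05 in intestine and 3.88 in lung. The lactonase Pon3 rose by 3.86 and 4.13, the membrane protein Pllp by 3.86 and 3.64, and the diamine oxidase Aoc1 by 4.12 and 3.59. Mgst2, a microsomal glutathione transferase, rose by 3.41 and 3.47, and the desmosomal protein Perp by 3.55 and 3.06. Clic5 and Hopx (2.53 in intestine and 3.21 in lung), though listed as type I cell genes, were the 2 members of that list that rose alike.

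Among regulators and pumps, Klf5, an epithelial transcription factor, had medians of 9.09 and 12.18 in intestine and 8.39 and 11.34 in lung. Its changes were 3.05 and 2.89, with an interval of the difference from -0.40 to 0.08, and 1 of its 3 other probe sets gave the same class. Atp1b1, a subunit of the sodium pump, had medians of 10.87 and 13.25 in intestine and 10.48 and 12.93 in lung, a change of 2.36 in each, with an interval from -0.28 to 0.29. The transcription factors Cebpb (1.49 and 1.21) and Cebpd (1.47 and 2.04) were the 2 of 27 glucocorticoid-responsive genes that rose alike. In that list 8 rose in lung only and 3 in intestine only, Pck1 on the side of the intestine and Scnn1a on that of the lung. The metallothionein Mt2A had medians of 8.59 and 13.52 in intestine and 9.17 and 8.33 in lung (interaction -5.70, SE 0.26). Its highest E20 lung values, 9.36 and 9.32, and its highest E16 intestine value, 9.79, were in arrays over the limit for liver genes, and without the 9 arrays that carried other tissues its interaction was -6.00, with the fall in lung then called. Klf15, another target of the hormone, had an interaction of 2.86 by its brightest probe set, while its other probe sets gave no call. The receptor gene Nr3c1 changed by 0.54 and 1.00 and was not called.

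Of 24 lysosomal genes 18 rose in intestine and 8 in lung, and 5 rose alike, such as the ceramidase Asah1 (2.22 and 1.86) and the protease Ctsz (1.91 and 1.39). Another 6 rose in intestine only, among them the galactosidase Glb1 (interaction -3.01). Of 23 antigen presentation genes 3 rose alike, 6 rose in both organs unequally, 2 rose in intestine only and 8 had no call. Among those alike was Cd74, the chaperone of class II molecules, with medians of 8.41 and 11.35 in intestine and 8.21 and 11.18 in lung (changes 2.95 and 2.72, interval of the difference from -0.73 to 0.28). The class II editing molecule RT1-DMb also rose alike, by 1.21 and 1.19. The 3 catalytic subunits of the immunoproteasome, which cuts peptides for class I molecules, had interactions below. Psmb8 ranged from 6.76 to 7.60 and from 11.54 to 12.12 in intestine, and from 6.74 to 7.56 and from 7.68 to 8.33 in lung. The organs overlapped at E16 and were 3.89 apart at E20 (interaction -3.76, SE 0.15, limma adjusted p = 3.5e-24). Psmb9 had -2.88 and Psmb10 -2.23.

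Other epithelial genes rose in both organs by unequal amounts, a class of 159 genes. Of 22 tight junction and adhesion genes 15 rose in intestine and 12 in lung, 6 of them unequally and Cldn3 alone alike (2.54 and 2.25). Epcam, an adhesion molecule of epithelia, rose by 4.61 in intestine and 1.43 in lung. Slc34a2, a phosphate carrier known from type II cells, ranged from 6.18 to 6.83 and from 10.53 to 10.92 in intestine and from 6.50 to 7.91 and from 13.40 to 13.86 in lung. It thus rose in both, by 4.30 and 6.50, and the difference was called (interaction 2.20, SE 0.18, limma adjusted p = 9.48e-14). Napsa, a protease that processes surfactant proteins, rose by 1.21 and 5.49.

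**Figure D4:**
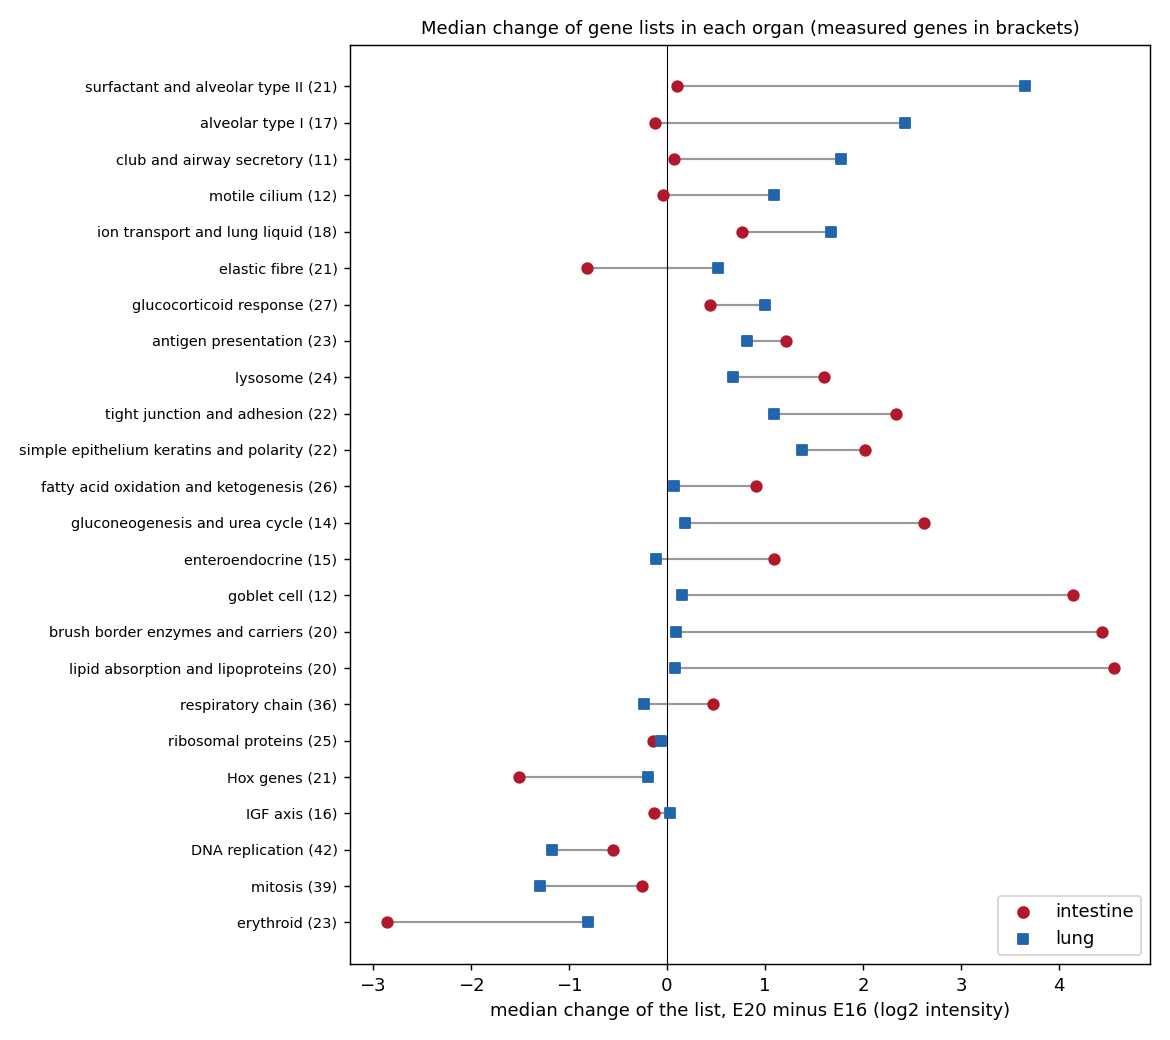
Median change from E16 to E20 of 24 gene lists in intestine (circles) and lung (squares), in log2 units, with the number of measured genes in brackets. Surfactant genes stand at 3.65 in lung and 0.10 in intestine, lipid absorption genes at 0.08 and 4.56, and ribosomal proteins near 0 in both.

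The falls that the organs shared alike included some developmental regulators and signalling genes. Col26a1, a minor collagen, ranged from 9.27 to 10.41 and from 7.01 to 7.41 in intestine, and from 9.87 to 10.63 and from 7.15 to 7.81 in lung. The organs overlapped at both ages and the ages did not. Its changes were -2.51 and -2.82, with an interval of the difference from -0.62 to 0.01. Sox11, a transcription factor of embryonic progenitors, had medians of 8.83 and 6.73 in intestine and 8.66 and 6.31 in lung, with changes of -2.29 and -2.35. Tdrkh changed by -2.40 and -2.29, the neuronal RNA-binding protein Elavl2 by -2.08 and -2.55, and the protease relative Capn6 by -2.17 and -2.28. Of signalling genes, the secreted Wnt inhibitors Sfrp1 (-1.53 and -1.81) and Sfrp2 (-2.43 and -1.97) fell alike, as did Fgf9 (-1.44 and -1.45), a growth factor of epithelium and mesothelium, and Smo (-1.42 and -1.22), which transduces Hedgehog signals. Such alike falls were 2 of 28 Wnt genes, 1 of 18 fibroblast growth factor genes and 1 of 13 Hedgehog genes, against 0.935% of all genes. In these lists 19, 9 and 8 genes had no call. Of the fibroblast growth factor genes 1 rose alike, and of the Hedgehog genes 2 rose in lung only. The paternally expressed Ndn also fell alike (-1.85 and -1.23).

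Opposite changes were called most often as a rise in lung with a fall in intestine. Dlk1, a membrane protein of fetal mesenchyme and endocrine cells, ranged from 9.13 to 10.62 in intestine at E16 and from 7.25 to 8.44 at E20, and from 6.86 to 9.15 and from 11.37 to 12.99 in lung. Intestine was the higher organ at E16, by 1.92 although 1 lung array reached the lowest intestine arrays, and lung at E20, by 4.47. The lung change was 4.38 (interaction 6.39, SE 0.34, limma adjusted p = 1.23e-19). Meg3, a noncoding RNA of the same imprinted region expressed from the maternal copy, ranged from 10.58 to 11.68 and from 8.75 to 9.83 in intestine, and from 9.41 to 10.44 and from 11.02 to 12.37 in lung. Its changes were -1.63 and 1.67 (interaction 3.31, SE 0.25), and a second probe set gave -0.78, which was not called, and 2.95. Of the 24 imprinted and fetal growth genes these were the 2 called in opposite directions.

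Emp2, a membrane protein abundant on type I cells, ranged from 10.61 to 11.24 and from 8.44 to 9.67 in intestine, and from 8.88 to 9.41 and from 12.70 to 13.66 in lung. No E16 array overlapped an E20 array within an organ, and the interaction was 5.99 (SE 0.17, limma adjusted p = 2.35e-29). A second probe set gave changes of -1.29 and 4.61. With Limch1 (-1.40 and 3.06) and Akap5 (-1.70 and 1.63) it was among 4 type I cell genes with opposite changes. Egfl6, a secreted matrix protein, had medians of 8.37 and 5.37 in intestine and 9.73 and 11.88 in lung (interaction 5.22, SE 0.15). Phactr1 changed by -2.40 and 1.79, the chemokine Cxcl1 by -1.94 and 3.71, and the growth factor Fgf18 by -1.58 and 1.74. The matrix genes Efemp1 (-2.25 and 1.48) and Loxl1 (-1.22 and 1.60), the integrin subunit Itga8 (-1.83 and 1.08) and the protease Plat (-1.47 and 1.39) were of this class. Aldh1a1, which makes retinoic acid, changed by -1.69 and 1.74.

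The reverse pattern, a fall in lung with a rise in intestine, held 12 genes. Aldh18a1, an enzyme of proline and ornithine synthesis, ranged from 10.08 to 10.41 and from 12.03 to 12.35 in intestine, and from 10.21 to 10.52 and from 8.64 to 9.16 in lung. The organs overlapped at E16 and were 3.24 apart at E20 (interaction -3.42, SE 0.080, limma adjusted p = 6.91e-32). The exporter Abcg2 had medians of 7.73 and 10.18 in intestine and 7.99 and 6.72 in lung (interaction -3.70, SE 0.15). Aldh1b1, a mitochondrial aldehyde dehydrogenase, changed by 1.79 in intestine and -1.47 in lung. Of the 12 genes 8 had no overlap of the ages in either organ, compared with 50 of the 54 of the other pattern. In the called organs the ages did not overlap for 151 of 157 alike rises and 129 of 133 alike falls. The same held for 386 of 399 rises and 158 of 164 falls in lung only. In intestine only it held for 594 of 606 rises and 355 of 367 falls. Genes named for the largest size of a result were required to have no such overlap in a called organ.

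Apoa1 and Afp, 2 of the 12, are also products of liver. Apoa1, an apolipoprotein, ranged from 6.18 to 8.42 in the E16 lung and from 5.69 to 8.36 in the E20 lung, which overlap, and in intestine from 5.77 to 9.45 and from 13.66 to 14.27. Its changes were 7.52 and -1.36, with an interaction of -8.88 (SE 0.48) and of -9.69 without the 9 arrays that carried other tissues. Afp, the fetal serum protein, changed by 2.98 in intestine and -4.56 in lung, with an interaction of -7.54 (SE 0.95) and of -9.09 without those arrays. Alb, the adult serum protein, changed by 1.59, which was not called, and -2.93. The mean of 18 liver genes per array ranged from 6.92 to 7.80 in the E16 lung (median 7.47) and from 6.51 to 8.28 in the E20 lung (median 6.61), with 2 E20 arrays at the top. It ranged from 6.85 to 8.63 in the E16 intestine and from 7.90 to 8.84 in the E20 intestine. Of the list 4 genes rose in intestine, 2 fell in lung and 7 had an interaction. Each array was set against the median of its own group, so leaving out the 9 does not remove liver transcripts common to a group. The part of liver tissue in these changes was not tested.

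Markers of other tissues also differed between groups. Of 16 cartilage genes 5 fell in intestine and 5 in lung, with list means of 7.68 to 7.97 and 6.96 to 7.23 in intestine and of 7.77 to 7.97 and 6.62 to 7.11 in lung. Of 20 skeletal muscle genes 6 fell in lung, where list means ranged from 6.74 to 7.71 at E16 and from 6.50 to 7.41 at E20. Of 14 mesothelium genes 8 had an interaction above. Their mean fell in intestine from a median of 9.56 to 8.83 and stood at 8.64 and 8.96 in lung. The part of these tissues was not tested.

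Some functions showed little difference between the organs. Of 25 ribosomal protein genes 0 had a called interaction, and 1 was called in intestine and 0 in lung. Of 26 proteasome genes 1 had an interaction and of 33 RNA processing genes 1, against 9.12% of all genes above and 8.48% below. The RNA processing genes did change with age, at medians of -0.62 in lung and -0.34 in intestine. Among them 6 fell in lung and 1 in intestine, against 4.63% and 6.26% of all genes. Of 20 smooth muscle genes 1 had an interaction, and Acta2, the smooth muscle actin, changed by 0.07 and 0.68 without a call. The interval of the interaction for a typical gene reached 0.22 to either side, so that differences of 2-fold were within reach of the design.

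Most interactions went with a difference between the organs that was called at E20 and not at E16. Of the 2502 genes 1508 (60.3%) were of this kind. For 158 genes (6.31%) a difference was called at E16 alone, Hoxa10 and Hoxd10 among them, and for 59 it was called at both ages with opposite signs, as in Dlk1. For 629 it was called at neither age. Of the 290 genes that changed alike, 232 had no called difference between the organs at either age.

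**Figure D5:**
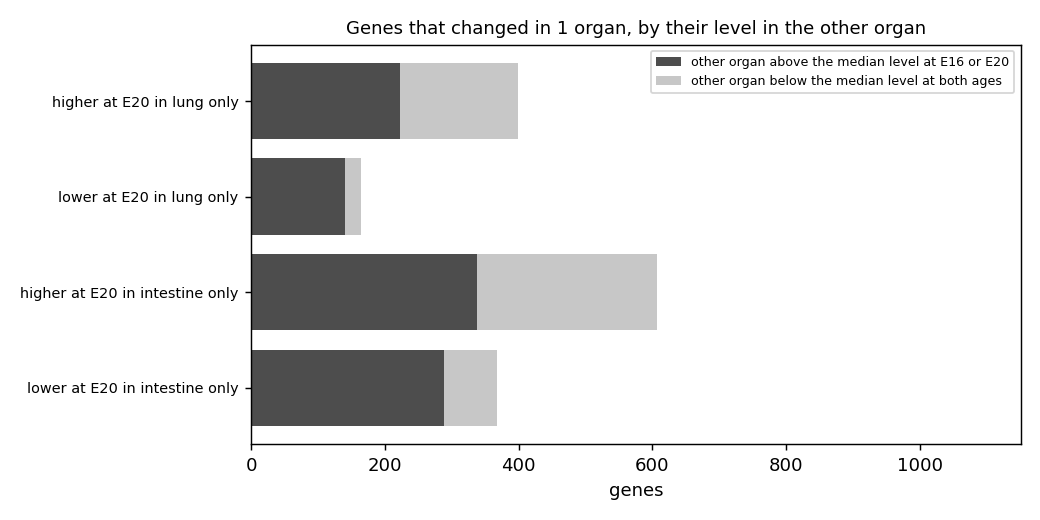
Number of genes that changed in 1 organ only, by class (bars), divided by whether the other organ exceeded the median log2 value of all probe sets at either age (dark) or at neither (light). The other organ was dim for 177 of 399 lung-only rises and 268 of 606 intestine-only rises, but for 24 of 164 and 78 of 367 of the falls.

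One-organ changes were split by the level in the other organ. For 177 of the 399 lung-only rises (44.4%) and 268 of the 606 intestine-only rises (44.2%) the other organ lay below the median of all log2 values, 7.89, at both ages, as for Sftpb and Rbp2. In the rest the other organ was above that level at 1 age or both, as for Acaa2 and Eln. For falls the other organ was dim at both ages in fewer cases, 24 of 164 in lung (14.6%) and 78 of 367 in intestine (21.3%). The share of all genes dim in 1 organ at both ages was not taken. By their mean over the 40 arrays, 9773 of the 14218 genes lay above that level. The changing organ was itself dim at both ages for 36 lung-only and 19 intestine-only rises, and for 18 and 35 of the falls. Changes near background are compressed on an array, so the size of a rise from a dim level is uncertain.

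A second probe set was present for 741 of the 2502 genes with an interaction. It gave a called interaction of the same direction for 299 of them (40.4%) and an interaction of the same sign for 634. Of the 375 second probe sets above the median level 189 gave the same call (50.4%). The second probe set gave the same class for 8 of 54 alike rises (14.8%) and 13 of 49 alike falls (26.5%). The sign of the interaction agreed in 31 of those 54. For alike rises the interaction lies near 0 (median -0.09), so its sign does not tell whether the 2 probe sets changed together. The same class was given by the second probe set for 39 of 113 lung-only rises (34.5%) and 16 of 39 lung-only falls (41.0%). For intestine-only changes it was given for 45 of 154 rises (29.2%) and 42 of 140 falls (30.0%). The sign of the interaction agreed in 102 of those 113, 32 of the 39, 118 of the 154 and 121 of the 140. For 2 genes, Kiaa1671 and Plin2, named after their values were seen, the probe sets were called in opposite directions.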

How the data were processed

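The authors deposited linear probe set intensities of 40 Affymetrix arrays, 10 per organ and age. RMA is named, with no version, per the submitters' processing notes. The sources used here do not say whether both organs were normalized in 1 run. Intensities ranged from 6.65 to 39901 and were used as log2 values, with no further normalization. Of 31099 probe sets, 20832 carried 1 gene symbol in the platform annotation and were tested, 436 had several and 9831 had none. Of those tested 20764 matched RefSeq by Entrez identifier.

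A mean for each group was fitted with limma 3.58.1 in R 4.3.3, the groups sharing 1 estimate of spread. Tests were two-sided, with Benjamini-Hochberg adjustment over all 20832 probe sets. Each gene was counted by its brightest probe set, and 4526 of the 14218 genes had more than 1. Fits were tested on simulated data. The members and gene lists were chosen with earlier results of these data known. Named genes are the 8 with the largest size for each result (brighter group above the median level, ages not overlapping in a called organ, established symbol), up to 4 members by interaction and 2 by alike change for each list, and genes of known function. Promoters came from the RefSeq table for GRCr8, which held 11734 of the genes. Alternatives in normalization, filters, thresholds, probe set choice, array weights, replicate number and arrays left out are described in the closing section. The number of arrays limits the precision.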

Additional observations from a re-analysis of the deposited data

Results flagged for a closer look

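The interaction itself is a difference between the organs under the same contrast of ages: the lung change lay above the intestine change for 1297 genes and below it for 1205, by limma's test of that difference.

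Among the genes whose single arrays are described above, 144 pairs of gene and group were searched for an array far from the other 9, and 11 were found. Chance gives about 1 in 20. Apoa1 was 9.45 in intestine E16 replicate 9, with the next array at 6.70, and that array also had the highest mean of liver genes in its group. Apoa1 was 6.18 in lung E16 replicate 10, with the next at 7.35, and that array had the lowest mean of liver genes. Both Hoxa10 values were high, at 10.09 in intestine E16 replicate 1 (next 9.78) and 5.83 in lung E16 replicate 7 (next 5.55). Lung E16 replicate 6 was apart in Cd74, at 9.09 above 8.48, and in Mki67, at 11.61 below 11.87. Ccna2 was 11.64 in lung E16 replicate 4, below 11.80. Atp1b1 was 11.39 in lung E16 replicate 9, above 10.81, an array over the limit for cardiac muscle genes. In groups where the gene was low, Sftpb was 5.65 in intestine E20 replicate 3 (next 6.07), Scgb1a1 6.82 in intestine E20 replicate 10 (next 6.50) and Fabp2 6.19 in lung E20 replicate 1 (next 5.73).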

How the results depend on the processing

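No call of an interaction was reversed under the 14 alternatives. Changed thresholds, replicate blocks and the alternatives limited to bright or brightest probe sets leave the size of each interaction unchanged, so they could not reverse one. The counts moved by over 1.5 times only where the threshold or the probe sets counted were altered. Some others came close to that limit or met it. Centring the arrays on their median gave 245 lung-only falls against 164. Adding 32 to the intensity gave 36 genes higher in lung and lower in intestine against 54, and 8 with the reverse pattern against 12. Tested against a 2-fold change, the interaction was called for 734 genes above and 766 below, with 96 higher and 62 lower alike, 258 higher and 53 lower in lung only, 158 lower in intestine only and 20 and 6 opposite. At a minimum change of 1.5-fold there were 2601 and 2372 interactions, 239 and 362 alike, 475 lower in lung only, 763 lower in intestine only and 209 and 80 opposite. At 3-fold there were 566 and 586 interactions, 75 and 25 alike, 231 higher and 25 lower in lung only, 103 lower in intestine only and 9 and 2 opposite. With bright probe sets only, 257 genes were higher in lung only; fewer genes were counted there. Of 4937 values of named genes over the alternatives, those that leave sizes unchanged included, 4764 kept their call, 152 lost it and 21 gained it. Among the lost, the interaction of Igf2 was -0.38 on averaging its probe sets.

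The labels give both organs the same replicate numbers, but same-numbered arrays did not deviate together throughout: the correlation ran from -0.05 to 0.7 at E16 and from -0.14 to 0.39 at E20, over 0.1 in 7 and 4 of 10 pairs. At E16 6 of 10 intestine arrays went best with the lung array of their own number, and at E20 1 did. In sex-linked transcripts 8 of 10 pairs were alike at E16 and 4 at E20. Whether equal numbers mark the same embryo or pool was not tested. With the replicate number as a block, the interaction was called for 1300 genes above and 1206 below. Without the 9 arrays that carried other tissues the counts were 1354 and 1305. Without 1 array in which 2 sex-linked transcripts were both high, an alternative chosen after seeing the data, they were 1312 and 1224. Dim probe sets limit the size of rises from background.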
